A study of Mus musculus with 16 samples.

Results

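The 10 genes described here belong to epithelial defence and the acute-phase response, measured in mice labelled GRK2 eKO, after G-protein-coupled receptor kinase 2, and in controls. They were selected by symbol as epithelial defence proteins, and chosen by values of these same libraries in that the difference between eKO and control, high for Lrg1 and Pglyrp2, was known. The 10 members, Lrg1, Lcn2, S100a8, S100a9, Pglyrp1, Pglyrp2, Pglyrp3, Slpi, Camp and Defb6, were all found in both tables, among 55357 genes in the skin table and 56953 in the stem cell table. Because the genotype contrast chose them, their differences between genotypes are given as a description with no p-value, and how many were called in the fit over all genes is counted once, beside the share of all genes. Lrg1 was higher in eKO stem cells, at 109 times the control mean, and overlapped between genotypes in skin, whereas Pglyrp2 separated the genotypes in skin and overlapped in stem cells.

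Material of C57BL/6 mice was sequenced. Whole back skin of 8-month-old mice gave 5 control and 5 GRK2 eKO libraries of poly-A-selected RNA. Hair follicle stem cells (HFSC), sorted as CD34 and alpha6-integrin positive bulge cells, gave 3 control and 3 GRK2 eKO libraries, with an age of 18 months in the sample labels and 8 months in the series' design text. The labels do not spell out eKO, name the promoter that drives the deletion or say whether libraries came from separate animals, so p-values measure the spread between these samples. Levels are normalised read counts, the reads of a gene divided by 1 size factor per library, and log2 values are taken after adding 1.

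Skin libraries held 8.21 to 16.4 M reads over genes and HFSC libraries 6.43 to 9.39 M. Grk2 itself averaged 1298 ± 144 normalised counts (SD, n = 5) in control and 1110 ± 93.8 in eKO skin, and 135 ± 12 (SD, n = 3) against 114 ± 8.68 in HFSC. The labels do not give the deleted part of the gene, so this gene-level count is no check of the genotype. The sorted cells carried the sorting marker Cd34 at 1157 to 1323 normalised counts in control and 1160 to 1222 in eKO. The other sorting marker, Itga6, was higher in eKO, at 3141 to 3290 beside 2047 to 2311 (limma adjusted p = 0.00051). Of 8 listed bulge stem cell markers 2 were called (25%), beside 19.4% of all genes. Apart from Itga6 this was Lgr5, which fell from 7251-7470 in control to 3654-3978 in eKO (limma adjusted p = 2.9e-06). The Y-linked gene Ddx3y was near 0 in 2 skin libraries, control 5 and eKO 3, and in HFSC its eKO mean was 33.6% of the control mean. Genotype and this Y-linked difference cannot be told apart in HFSC. Ly6g, a neutrophil marker, and Myd88, an adaptor found in most cells, were both listed at 0 in all 16 libraries, so a value of 0 in these tables can be a failed estimate.

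Skin epithelium makes small secreted proteins that kill or bind microbes, and many of them are induced by cytokines of the interleukin-1, interleukin-17 and interleukin-6 families through NF-kappaB, C/EBP and STAT3. Beta-defensins such as Defb6 and the cathelicidin Camp are cationic peptides that damage microbial membranes. The peptidoglycan recognition proteins bind bacterial cell wall, and Pglyrp2 is an amidase that cuts it. S100a8 and S100a9 form calprotectin, which withholds metals from microbes and is abundant in neutrophils and in stressed keratinocytes. Lcn2 binds the siderophores with which bacteria take up iron, Slpi inhibits serine proteases, and Lrg1 is a secreted leucine-rich glycoprotein of the acute-phase response that modulates TGF-beta signalling through endoglin in vessels.

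The promoters of Lrg1, Defb6 and Pglyrp2 are shown because these members had the largest genotype differences among those measured in HFSC (the former pair) and in skin (Pglyrp2). Each runs from 250 bases before to 30 after the RefSeq transcription start (GRCm38.p6), 5′ to 3′ on the gene's strand: Lrg1 at chr17:56121917-56122196 on the minus strand, Defb6 at chr8:19225228-19225507 on the plus strand and Pglyrp2 at chr17:32420946-32421225 on the minus strand. Capitals mark matches, on either strand, to the C/EBP motif TTNNGNAA, the TATA box TATAAA, the STAT motif TTCNNNGAA or the NF-kappaB consensus.
Lrg1: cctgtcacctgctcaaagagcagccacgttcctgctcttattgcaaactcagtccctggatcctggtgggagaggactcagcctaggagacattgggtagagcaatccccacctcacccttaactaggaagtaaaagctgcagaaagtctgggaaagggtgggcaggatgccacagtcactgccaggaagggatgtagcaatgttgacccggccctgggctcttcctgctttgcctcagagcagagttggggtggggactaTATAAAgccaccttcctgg
Defb6: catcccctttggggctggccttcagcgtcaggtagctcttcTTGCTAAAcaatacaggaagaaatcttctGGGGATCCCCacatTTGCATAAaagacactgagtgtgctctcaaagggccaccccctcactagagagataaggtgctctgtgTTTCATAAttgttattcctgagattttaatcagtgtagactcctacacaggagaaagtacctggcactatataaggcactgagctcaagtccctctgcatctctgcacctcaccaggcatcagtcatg
Pglyrp2: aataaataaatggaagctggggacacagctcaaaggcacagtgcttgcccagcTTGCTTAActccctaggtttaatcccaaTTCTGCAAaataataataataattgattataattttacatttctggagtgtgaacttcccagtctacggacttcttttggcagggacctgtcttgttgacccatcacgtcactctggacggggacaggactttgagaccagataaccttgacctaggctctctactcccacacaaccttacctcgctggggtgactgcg
Defb6 held 3 C/EBP matches and 1 NF-kappaB match, Pglyrp2 held 2 C/EBP matches, and Lrg1 held only a TATA box just downstream of the annotated start. Over 300 bases, from 250 before to 50 after the start, the C/EBP motif was found in 6 of the 9 members with an entry and in 40.7% of 32851 promoters. The NF-kappaB consensus was found in 3 of 9 members (Pglyrp1, Camp and Defb6) and in 8.46% of all promoters, and the TATA box in 3 of 9 (Lrg1, S100a8 and S100a9) and in 13.6%. The STAT motif was in 0 of 9 and in 8.3% of all promoters. The letters TTNNGNAA and TTCNNNGAA can overlap, and a match is a stretch of letters, not a bound site.

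Per kilobase of exon, Defb6 and Lrg1 led the members in skin. In control skin Defb6 averaged 2055 ± 853 normalised counts per kb (SD, n = 5), Lrg1 576 ± 444, S100a9 191 ± 304, S100a8 59.8 ± 62.2 and Pglyrp3 54.0 ± 25. Slpi followed at 26.9 ± 19.7, Pglyrp1 at 21.8 ± 1.22, Lcn2 at 7.90 ± 3.71, Pglyrp2 at 5.61 ± 1.32 and Camp at 4.05 ± 3.15. Every neighbour in this order overlapped the next across libraries except Pglyrp1 and Lcn2. In eKO skin the order was the same apart from Pglyrp2, which moved above Pglyrp1 and Lcn2 at 40.5 ± 21.3 per kb.

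The order was different in sorted stem cells. In control HFSC Defb6 averaged 26.4 ± 8.19 normalised counts per kb (SD, n = 3), Pglyrp1 10.01 ± 3.68, Lrg1 5.76 ± 0.577 and Pglyrp3 2.47 ± 1.46, and every other member was under 1.5. In eKO HFSC Lrg1 came first at 629 ± 174 per kb, above Defb6 at 307 ± 42.8, with no overlap between these neighbours. Pglyrp1, Pglyrp3, S100a9 and S100a8 followed at 16.0, 15.2, 15.03 and 13.2 per kb, overlapping each other. The plot of all members by library shows both tissues.

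**Figure D1:**
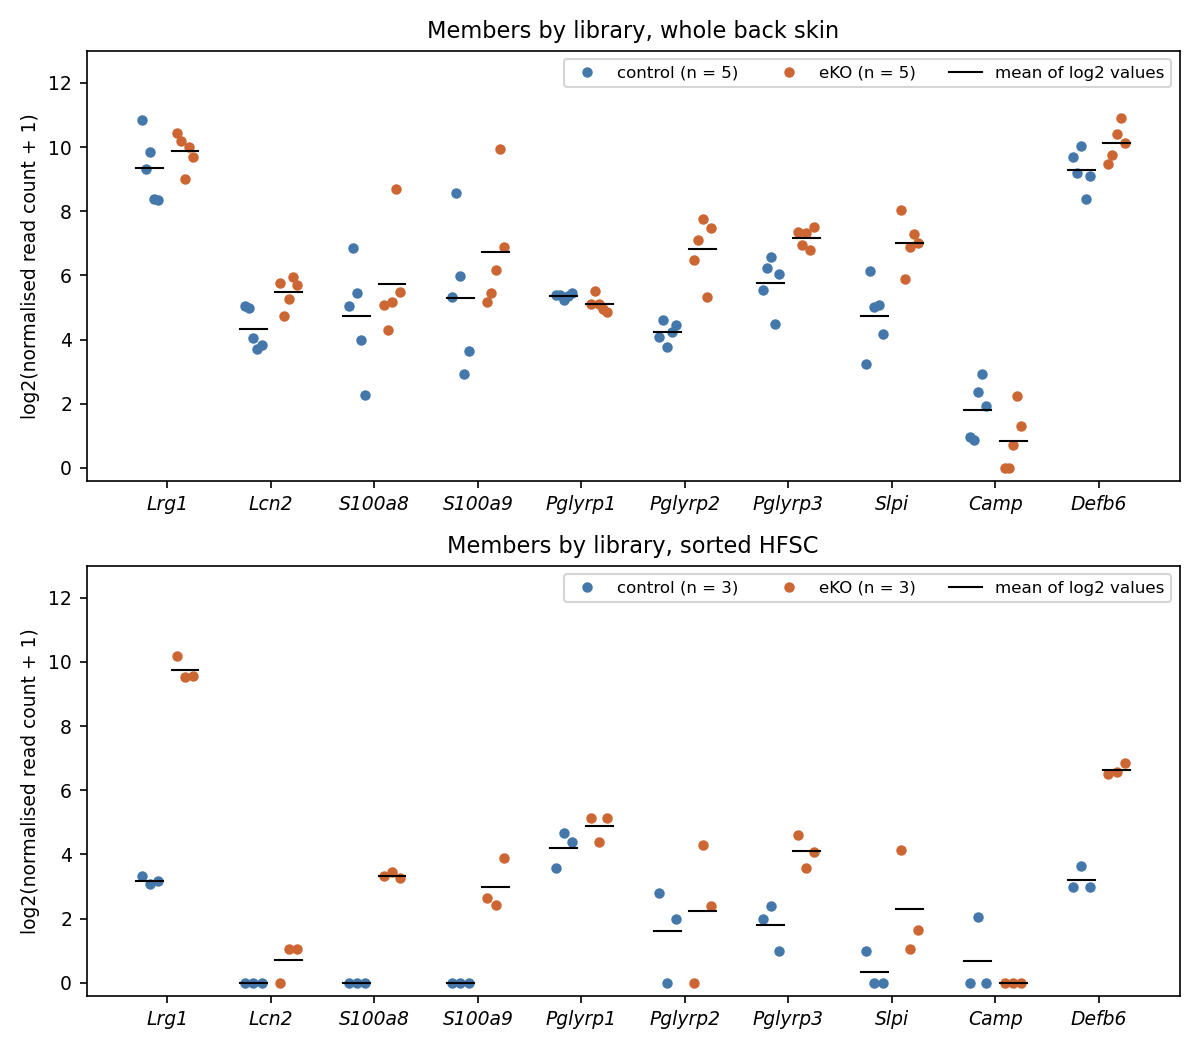
Level of each of the 10 members as log2(normalised read count + 1), in 5 control and 5 eKO skin libraries (top) and 3 control and 3 eKO HFSC libraries (bottom); each point is a library and each line the mean of the log2 values. Pglyrp2 and Pglyrp3 separate in skin, and Lrg1, Defb6, S100a8, S100a9 and Pglyrp3 separate in HFSC. Slpi does not overlap in HFSC either, but its nearest libraries, control 1 and eKO 2, have equal reads.

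Of the acute-phase and metal- or iron-binding members, Lrg1 showed the widest gap between tissues. In HFSC, Lrg1 was at 8.98, 7.36 and 8.00 normalised counts in the 3 control libraries and at 1169, 738 and 750 in the 3 eKO libraries. All eKO libraries lay far above all controls, and the log2 fold change was 6.57 (SE 0.23). In skin, Lrg1 was at 1838, 635, 927, 334 and 322 in control and at 1398, 1178, 517, 1031 and 826 in eKO. The skin groups overlapped over most of their range, control 1 being the highest of all 10, and the log2 fold change was 0.53 (SE 0.53). Its value was 0.90 without control 1 and 0.27 without control 5. In bulk RNA, fewer cells of a type and less RNA per cell cannot be told apart.

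The endothelial marker list was also higher in eKO than in control HFSC, as were the other lists given at the end of this paragraph. Its 8 genes (Pecam1, Cdh5, Vwf, Plvap, Kdr, Tek, Esam and Emcn) summed to 53.9 to 70.5 normalised counts in control HFSC and to 1191 to 1357 in eKO, and 8 of 8 rose by limma's adjusted p. None of the 8 was called in skin, where the sums were 3154 to 5192 in control and 3195 to 6823 in eKO. As a share of that sum, which does not depend on the scaling of a library, Lrg1 was 10.4% to 16.7% in control HFSC and 55.3%, 61.7% and 98.2% in eKO HFSC. In skin it was 7.17% to 37.9% in control and 16.2% to 26.8% in eKO. Lrg1 stood higher against endothelial markers in the 3 eKO HFSC libraries than in any of the other 13. The control HFSC shares rest on 7 to 9 Lrg1 reads per library, and Vwf and Emcn were listed at 0 in those controls. Other lists rose as well in HFSC, and their part in the Lrg1 values was not tested: 7 of 7 tested sebaceous gland markers (list sums of 2165 to 2334 against 11795 to 12660), 5 of 6 tested markers of differentiated epidermis (2531 to 4360 against 16698 to 17502), 5 of 5 tested markers of stressed keratinocytes (4293 to 4616 against 10011 to 10206) and 8 of 9 tested markers of hair matrix and shaft (596 to 658 against 2402 to 2722).

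**Figure D2:**
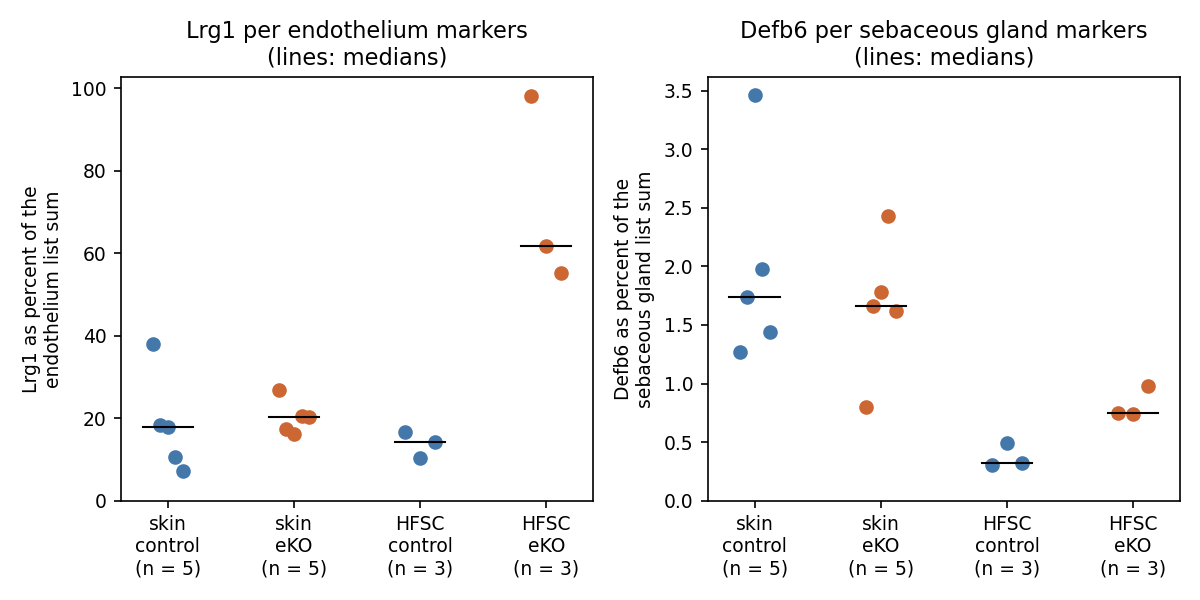
Lrg1 as a percentage of the summed endothelial markers (left) and Defb6 as a percentage of the summed sebaceous gland markers (right) in each library, with lines at the group medians. Lrg1 lies between 7.17% and 37.9% in the skin libraries and control HFSC and at 55.3% or more in the 3 eKO HFSC libraries; Defb6 lies below 1% in all HFSC libraries.

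S100a8 and S100a9, the calprotectin pair, were listed at 0 in all 3 control HFSC libraries. In eKO HFSC S100a8 was at 9.10, 9.87 and 8.52 normalised counts and S100a9 at 5.31, 4.38 and 13.8. Both thus had reads in all 3 eKO libraries, mostly too few to pass the filter of 10 normalised counts in 3 libraries. The 11 listed neutrophil markers, whose part in these values was not tested, summed to 0 to 2.99 in control and 0 to 23.0 in eKO, 6 of 11 were listed at 0 in all 6 libraries, and these included Csf3r, Ngp and Mmp8, although Csf3r averaged 104 in control skin. Cxcr2 was at 13.6, 14.3 and 0 in eKO 1, eKO 2 and eKO 3. The library without Cxcr2 reads, eKO 3, held the highest S100a9.

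In skin the same pair varied more between libraries than between genotypes. S100a8 was at 32.2, 114, 42.8, 14.9 and 3.80 in control and at 33.0, 18.7, 34.7, 414 and 43.9 in eKO. S100a9 was at 38.8, 381, 61.6, 6.53 and 11.4 in control and at 34.7, 43.2, 71.3, 975 and 118 in eKO. Control 2 and eKO 4 were the highest of their genotypes for both genes, and the other libraries of both genotypes intermingled. The difference on the log2 scale was 1.02 (SE 1.08) for S100a8 and 1.44 (SE 1.31) for S100a9; without eKO 4 alone these were 0.29 and 0.64, and without control 2 and eKO 4 together, a setting chosen after seeing the data, 0.82 and 1.47.

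Lcn2, the siderophore binder, was at 32.2, 30.4, 15.7, 12.1 and 13.3 normalised counts in control skin and at 53.4, 25.5, 37.2, 60.8 and 51.2 in eKO. In all, 4 of 5 eKO libraries lay above every control and eKO 2 did not, with a log2 fold change of 1.15 (SE 0.36). In HFSC Lcn2 was listed at 0 in the 3 controls and at 0, 1.10 and 1.07 in eKO, where each value above 0 is 1 read.

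The peptidoglycan recognition proteins differed from one another. In skin Pglyrp2, the amidase, was at 16.1, 23.6, 12.5, 17.7 and 20.9 normalised counts in control and at 89.1, 137, 214, 39.3 and 175 in eKO. The groups did not overlap, eKO 4 being the lowest of its genotype, and the log2 fold change was 2.60 (SE 0.45). In the same skin libraries 3 of 8 sebaceous gland markers rose by limma's adjusted p (Far2, Krt79 and Cidea; list sums of 16693 to 64966 in control and 51660 to 88337 in eKO), and their part in the Pglyrp2 values was not tested. As a share of the sebaceous sum, Pglyrp2 in skin was 0.0248% to 0.106% in control and 0.0503% to 0.283% in eKO, which overlap. Shares of the stressed keratinocyte sum also overlapped, at 0.0832% to 0.185% and 0.0959% to 0.716%. Shares of the endothelial sum did not, at 0.241% to 0.678% and 0.783% to 6.69%. In HFSC Pglyrp2 was at 5.98, 0 and 3.00 in control and at 0, 18.6 and 4.26 in eKO. These HFSC groups overlapped, and leaving out eKO 2 took the log2 fold change from 0.63 to -0.40.

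Pglyrp3 was at 45.4, 73.4, 94.0, 21.5 and 64.6 in control skin and at 162, 123, 158, 110 and 180 in eKO skin. All eKO libraries were above all controls, with a log2 fold change of 1.41 (SE 0.38). It was also separate in HFSC, where control was at 2.99, 4.21 and 1.00 and eKO at 23.5, 11.0 and 16.0, with a log2 fold change of 2.30 (SE 0.51). The HFSC controls are near the level of a few reads, and with 5 added before the log the HFSC value was 1.48.

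Pglyrp1, the member of the family that neutrophils store, showed the least spread between libraries in control skin, but not in HFSC. It was at 40.7, 40.5, 36.5, 40.1 and 42.8 in control skin and at 33.8, 45.2, 33.4, 29.96 and 27.8 in eKO, with a log2 fold change of -0.25 (SE 0.12). In HFSC it was at 11.0, 24.2 and 20.0 in control and at 34.1, 19.7 and 34.1 in eKO, with a log2 fold change of 0.67 (SE 0.41). The groups overlapped in both tissues.

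Of the membrane-active peptides, Defb6 was abundant in skin, and Camp was not abundant in either tissue. Defb6 was at 6.98, 11.6 and 6.999 normalised counts in control HFSC and at 89.5, 93.2 and 115 in eKO HFSC. The groups were far apart, with a log2 fold change of 3.42 (SE 0.24). The control HFSC values, and the control HFSC shares of marker lists given below, rest on 7 to 11 Defb6 reads per library. In skin Defb6 was at 822, 578, 1045, 330 and 545 in control and at 708, 860, 1348, 1901 and 1119 in eKO, with overlapping genotypes and a log2 fold change of 0.86 (SE 0.38). Against the summed sebaceous gland markers Defb6 was 0.309% to 0.496% in control HFSC and 0.736% to 0.975% in eKO HFSC, so these groups were apart by less than the levels of Defb6 itself. Against differentiated epidermis it went from 0.161%-0.345% to 0.511%-0.689%, and against stressed keratinocytes from 0.151%-0.254% to 0.894%-1.13%. Against endothelial markers it was lower in eKO, at 7.51%-8.48% beside 12.5%-16.4%. The share thus depended on the list chosen, and the part of each list was not tested. Camp was at 0.946, 0.843, 4.18, 6.53 and 2.85 in control skin and at 0, 0, 0.642, 3.74 and 1.46 in eKO skin, and it passed no filter in either tissue. A single HFSC library, control 2, had Camp reads.

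Slpi, the antiprotease, was at 8.51, 69.1, 31.3, 32.7 and 17.1 in control skin and at 260, 57.9, 118, 154 and 129 in eKO. In all, 4 of 5 eKO libraries were above every control, and the log2 fold change was 2.29 (SE 0.59). In HFSC it was at 0.997, 0 and 0 in control and at 16.7, 1.10 and 2.13 in eKO, so that 1 of the 3 eKO libraries held most of its reads. Control 1 and eKO 2 each held 1 read of Slpi, and their normalised values differ by the size factor alone.

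**Figure D3:**
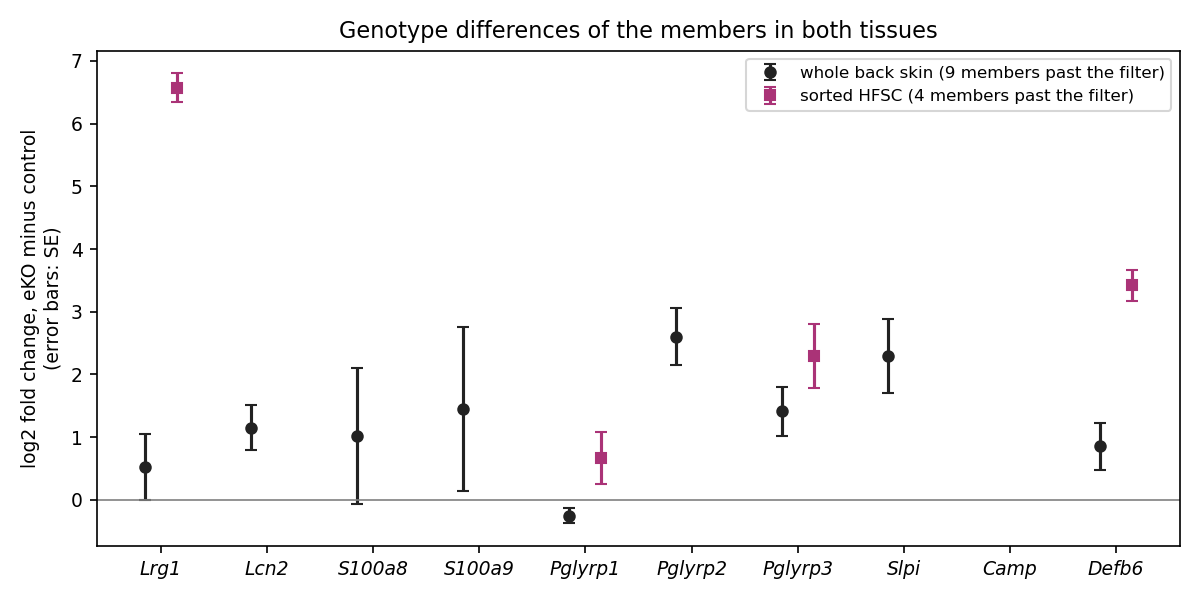
Log2 fold change of eKO over control for the 9 members past the filter in skin (circles) and the 4 past it in HFSC (squares), with error bars of 1 SE from the pooled spread of the log2 values. Lrg1 reaches 6.57 in HFSC and 0.53 in skin, while Pglyrp2, the highest in skin at 2.60, was not past the filter in HFSC.

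In skin 9 of the 10 members passed the filter, and 6 of those 9 would have passed on the control libraries alone; in HFSC 4 passed and 1, Pglyrp1, would have, while Lrg1, Pglyrp3 and Defb6 passed only through eKO. limma with Benjamini-Hochberg adjustment called 1 member in skin, Pglyrp2, where 0.374% of all 16589 genes were called, and 2 in HFSC, Lrg1 and Defb6, where 19.4% of 13784 were. Groups did not overlap for 2 members in skin, both with eKO above, as for 1.74% of genes (4.18% in either direction). In HFSC they did not overlap for 3 of the 4 past the filter, all with eKO above, as for 18.9% (36.3% in either direction), and for 6 of all 10, beside 13.6% of genes with a read; 1 of these 6 is Slpi, whose nearest libraries have equal reads. Since this contrast chose the members, these counts carry no further weight. The difference between tissues was not tested for the members.

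Within genotype, the largest correlations of members with marker lists across skin libraries were those of S100a9, S100a8, Slpi and Lcn2, though none passed correction. Each member and each marker score (the mean log2 value of a list) was taken as its deviation from the genotype mean over 10 libraries, for 9 members and 3 lists, which makes 27 relations. All 11 neutrophil markers enter their score equally, yet only 2, Csf3r and Cxcr2, passed the filter in skin, and Ly6g was listed at 0. That score therefore rests mostly on genes with few reads. S100a9 followed the neutrophil score with r = 0.87 and rho = 0.83 (two-sided exact permutation within genotype, p = 0.00188 and 0.0084; adjusted p = 0.0506 and 0.0756). Without the 2 libraries farthest from the median score, control 2 and control 4, r was 0.80. It was 0.99 in the 5 controls and 0.77 in the 5 eKO libraries. The farthest 2 did not include eKO 4, the library highest in S100a9 and S100a8. For S100a8 the same values were r = 0.77 and rho = 0.81 (exact permutation p = 0.00882 and 0.00778, adjusted p = 0.0574 and 0.0756), with r = 0.91 without the 2 farthest. For Lcn2 they were r = 0.77 and rho = 0.82 (exact permutation p = 0.00556 and 0.005, adjusted p = 0.0574 and 0.0756), with r = 0.80 without the 2 farthest. None of the 27 passed an adjusted p of 0.05 by this exact permutation test, and 7 had an unadjusted p below it.

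Stressed keratinocyte markers gave r = 0.82 and rho = 0.67 for S100a9, r = 0.81 and rho = 0.73 for S100a8, and r = 0.78 and rho = 0.61 for Slpi, with exact permutation p of 0.00778, 0.0106 and 0.0158 for r (adjusted p = 0.0574, 0.0574 and 0.0713) and of 0.0312, 0.0265 and 0.0705 for rho (adjusted p = 0.169, 0.169 and 0.238). Without the 2 libraries farthest from the median score, here control 1 and control 5, r was 0.85, 0.83 and 0.73. Control 2 and eKO 4, the highest of their genotypes for S100a8 and S100a9, stayed in, so r without them is not given. Lrg1 went the other way against hair matrix and shaft markers, which track follicle growth, with r = -0.73 and rho = -0.70 (exact permutation p = 0.0299 and 0.042, adjusted p = 0.115 and 0.189). Without the 2 farthest libraries for that score, control 1 and eKO 1, r was -0.47. Pglyrp2 had r = -0.16, -0.16 and -0.07 with the 3 scores (exact permutation p = 0.504, 0.595 and 0.87). Its r with the neutrophil score was -0.76 without control 2 and control 4, the 2 farthest for that score.

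**Figure D4:**
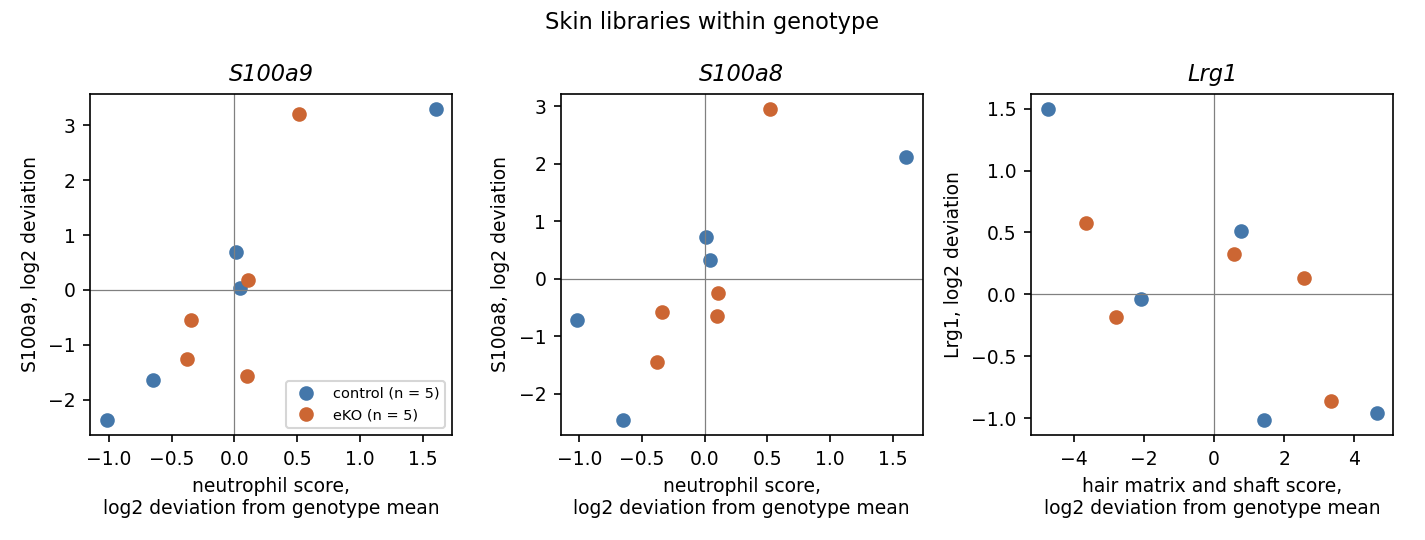
Deviation of S100a9 and S100a8 against the neutrophil score and of Lrg1 against the hair matrix and shaft score, each from its genotype mean on the log2 scale, in the 5 control and 5 eKO skin libraries. The points slope upward for the S100 genes (r = 0.87 and 0.77) and downward for Lrg1 (r = -0.73); none of these passed correction over the 27 relations.

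The genes whose deviations were most like those of a member, over the 10 skin libraries and 16589 genes, were ranked by Pearson r as a description. For Lrg1 they were Hp (haptoglobin, another acute-phase protein; r = 0.98), the long noncoding RNA ENSMUSG00000117664 (0.97) and Col4a2 (a basement membrane collagen; 0.95). For S100a8 they were Far1 (0.98), Chil1 (a chitinase-like protein; 0.97) and Slc4a7 (0.97), and its partner S100a9 had r = 0.91. For Pglyrp2 they were Agap3 (0.93), Gm26881 (0.91) and Gstt3 (0.90). These libraries share their depth and tissue makeup, and the highest of many r values is high by selection.

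Of 127 other genes of the same pathways, 59 were tested in HFSC, and by limma 21 rose and 4 fell in eKO. These 25 are 42.4% of those tested, beside 19.4% of all genes, and the 21 stand beside 10.7% of all genes higher. The median difference of the 59 was 0.19 on the log2 scale, beside -0.03 over all genes. In skin it called 2 of 83 tested, both higher, beside 0.229% of all genes higher, and the median was 0.29 beside 0.00; 61 of the 83 had a higher mean log2 value. The lists were chosen with earlier results known and received no test as sets. The interaction contrast covered listed genes tested in both tissues, which are at most the 59 tested in HFSC. For 11 of them the genotype effect differed between tissues by limma's interaction contrast, which called 5.62% of 13227 genes.

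Both genes called in skin rose. Slc46a2, a transporter that carries bacterial muropeptides into epithelial cells, was at 641, 659, 691, 547 and 574 normalised counts in control skin and at 1293, 1145, 1358, 1010 and 1233 in eKO (log2 fold change 0.95, SE 0.10, limma adjusted p = 0.0096, higher in 5 of 5 eKO libraries than in any control). Ccl20, the chemokine that draws CCR6-bearing cells, was at 15.1, 21.9, 8.35, 8.40 and 24.7 in control and at 99.7, 76.6, 206, 84.3 and 126 in eKO (log2 fold change 2.87, SE 0.37, limma adjusted p = 0.0136, also without overlap). Neither was called without the 2 libraries that lack Y-linked transcripts, where no gene was, with limma adjusted p of 0.0816 and 0.0711.

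Among inducing cytokines in HFSC, 3 of 5 tested rose and none fell. Il1f9 (Il36g), an interleukin-1 family cytokine of keratinocytes, was at 12.96, 7.36 and 2.00 in control and at 207, 174 and 182 in eKO (log2 fold change 4.74, SE 0.53, limma adjusted p = 5.7e-05). Il1rn, the interleukin-1 receptor antagonist, rose by 1.99 (SE 0.13) and the alarmin Il33 by 0.74 (SE 0.17), with limma adjusted p of 5.4e-07 and 0.0083. Ccl20 also rose, from 0, 0 and 2.00 in control to 81.9, 50.4 and 67.1 in eKO (limma adjusted p = 0.00033), which is at least 21.8-fold higher against a floor of 3 reads per control library.

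Of the receptors, signalling proteins and transcription factors, 8 of 21 tested rose in HFSC and 2 fell. Cebpb and Cebpa, transcription factors that bind C/EBP motifs, rose by 2.39 (SE 0.65) and 1.28 (SE 0.20) on the log2 scale, with limma adjusted p of 0.0222 and 0.00069; the adjusted p of Cebpb was 0.0517 with no filter and up to 0.0924 on leaving out 1 library. Zc3h12a, which degrades inflammatory transcripts, rose by 2.02 (SE 0.21) and Nfkbiz, a nuclear NF-kappaB cofactor of defence genes, by 1.22 (SE 0.19), with limma adjusted p of 3.5e-05 and 0.00063. None of the 22 tested in skin was called.

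The other antimicrobial proteins in HFSC gave 3 of 6 tested higher and 1 lower. Defb1, a beta-defensin, rose from 1.99, 11.6 and 6.999 to 28.8, 41.7 and 52.2 (log2 fold change 2.60, SE 0.67, limma adjusted p = 0.0159, and up to 0.0611 on leaving out 1 library). Pglyrp4, the remaining peptidoglycan recognition protein, rose from 107, 94.7 and 78.0 to 302, 296 and 376 (log2 fold change 1.79, SE 0.21, limma adjusted p = 9.1e-05), and Bpifc by 1.36 (SE 0.41; adjusted p = 0.0326, and up to 0.119 on leaving out 1 library). Lyz2, the lysozyme of macrophages and neutrophils, fell by 2.50 on the log2 scale (SE 0.77, limma adjusted p = 0.0369); its adjusted p was 0.0621 with edgeR and up to 0.121 on leaving out 1 library. In skin Pglyrp4 was at 262 to 499 in control and 437 to 850 in eKO and was not called (adjusted p = 0.211). Of 24 listed, 14 were listed at 0 in all HFSC libraries.

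Among binding partners and processing enzymes, 5 of 12 tested rose in HFSC and none fell. Eng, the endoglin through which Lrg1 modulates TGF-beta signalling, was at 26.9, 55.8 and 23.0 in control and at 187, 185 and 131 in eKO (log2 fold change 2.31, SE 0.36, limma adjusted p = 0.00075). Eng is itself abundant in endothelium, whose 8 markers rose in the same libraries. Cd36, a scavenger receptor, rose by 4.19 (SE 0.52; adjusted p = 0.00012). Of the kallikreins, Klk7, an epidermal protease that processes cathelicidin, and Klk8 rose by 2.74 (SE 0.24; adjusted p = 9.0e-06) and 2.29 (SE 0.42; adjusted p = 0.0022); Klk7 also stands on the list of differentiated epidermis markers.

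Of 4 other acute-phase proteins tested in HFSC, Steap4, a metalloreductase, rose by 0.87 (SE 0.08; limma adjusted p = 1.1e-05), and 12 of the 25 listed were at 0 in all HFSC libraries. None of 9 tested was called in skin, where Hp, the gene most like Lrg1, ranged from 394 to 8712 normalised counts in control and from 1426 to 8405 in eKO (adjusted p = 0.548). Of 9 sensing genes tested in HFSC, Nod2, an intracellular sensor of muramyl dipeptide, fell by 0.96 (SE 0.21; limma adjusted p = 0.0062), from 393, 359 and 375 to 146, 193 and 255, and none rose.

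**Figure D5:**
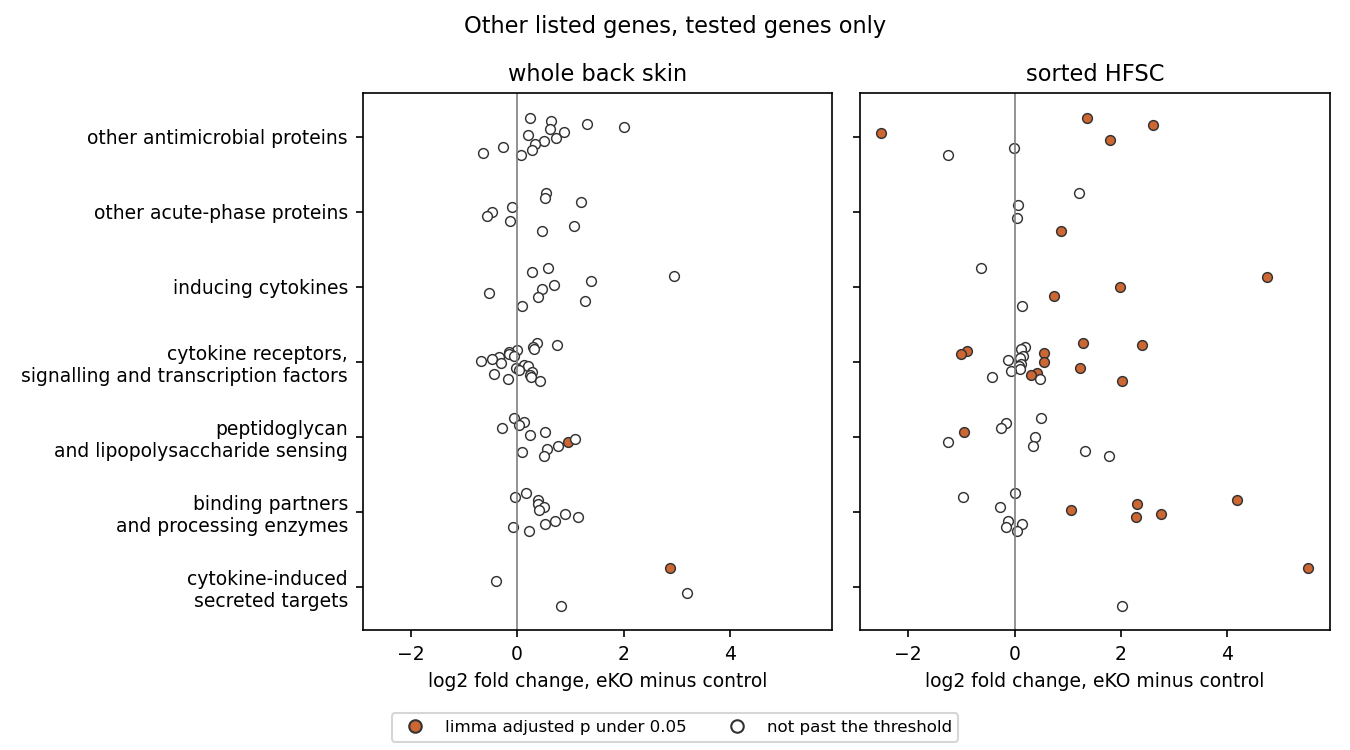
Log2 fold change of eKO over control for the other genes of 7 lists that passed the filter, in skin (left, 83 genes) and HFSC (right, 59 genes); filled circles passed limma's adjusted p of 0.05. Filled circles number 2 in skin and 25 in HFSC, 21 of the latter to the right of 0.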

How the data were processed

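Poly-A RNA libraries of skin (10) and libraries of sorted HFSC (6) were used as deposited. Read mapping used GRCm39 per the submitters' processing notes, which for skin also name featureCounts and DESeq2; the aligner and annotation are not given in the sources used here. The values deposited by the authors are a signal: gene read counts divided by a size factor per library. Whole reads were recovered in 100% of values (tolerance 0.01). Gene symbols came from GENCODE M21 and cover 94.1% of skin and 91.4% of HFSC rows.

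Genotypes were compared within each tissue with limma 3.58.1 (R 4.3.3; trended prior, log2(value + 1), a minimum value of 10 in at least the number of libraries of the smaller group, Benjamini-Hochberg over all genes, threshold 0.05), which was tested on simulated data. A fold change on this scale understates low genes. SEs of members are from the pooled spread of log2 values, SEs of other genes from limma. The difference between tissues was the interaction contrast in 1 limma fit. edgeR 4.0.16 and DESeq2 1.42.0 served as alternatives, applied to the recovered reads. Lengths per kb are merged exons of GENCODE M21. The counting is not stated to use strand, so overlapping antisense reads are not told apart.

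Members and lists were chosen with earlier results of these data known. Named were all members and, per list and tissue, up to 4 called genes with the largest change. Pglyrp3 is named without a promoter.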

Additional observations from a re-analysis of the deposited data

Results flagged for a closer look

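In skin, 3 values of members lay far from the others of their group of 5, by Dixon's criterion on normalised counts. It flags about 1 in 20 groups by chance only where values are normally distributed, and it was not applied on the log2 scale. S100a8 was at 414 normalised counts in skin eKO 4, S100a9 at 975 in the same library, and S100a9 at 381 in skin control 2.

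Of the other listed genes tested in both tissues, at most the 59 tested in HFSC, 11 had genotype effects that differed between HFSC and skin. This is by limma's interaction contrast, which called 5.62% of 13227 genes. The differences are HFSC minus skin on the log2 scale, each effect being taken within its own table. The effect was higher in HFSC for 10: Il1f9 by 4.06 (adjusted p = 0.0025), Cd36 by 3.80 (0.0043), Defb1 by 1.97 (0.0228), Eng by 1.92 (0.0032), Klk7 by 1.84 (0.0015), Zc3h12a by 1.59 (0.0358), Il1rn by 1.52 (0.0191), Nfkbiz by 1.24 (0.0309) and Cebpa by 0.91 (0.033). For Ccl20 the fitted difference was 2.65 (limma adjusted p = 0.028), but its HFSC controls held at most 2 reads, so this size depends on the value added before the log. Lyz2 differed in the other direction, by -3.38 (limma adjusted p = 0.0242). HFSC and skin libraries were deposited in separate tables, with differing labelled ages and RNA purification, so tissue cannot be told apart from these.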

How the results depend on the processing

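No member's called value changed direction under the alternatives run, which carries no further weight because this contrast chose the members. Among member values that were not called, Pglyrp2 in HFSC did change direction, from -0.40 to 1.74 on leaving out 1 library. Over pseudocounts, filters, scalings, edgeR, DESeq2 and leave-one-out fits, log2 fold changes ran from 6.05 to 6.77 for Lrg1 and from 2.96 to 3.64 for Defb6 in HFSC, and from 2.37 to 2.97 for Pglyrp2 in skin. Skin counts were the least stable: the 62 genes called became 37 with no filter, 32 with library size scaling, 656 with DESeq2, 155 with the hair matrix score as covariate and 0 without the 2 libraries lacking Y-linked transcripts (1790 at an unadjusted limma p under 0.05), and 10 to 57 on leaving out 1 library. The 2 listed genes called in skin became 7 with DESeq2, 0 without those 2 libraries (19 at an unadjusted p) and 1 to 3 on leaving out 1; Ccl20 was lost without eKO 1 or eKO 5. In HFSC, the 2673 genes called became 1519 to 2620 and the 25 listed genes 16 to 21 on leaving out 1 library, 16 being without control 1; 15 of the 25 were kept in every alternative, and Bpifc, Cebpb, Defb1, Il17rc, Il1r1, Il1rap, Klk5, Lyz2, Socs3 and Stat3 were each lost in at least 1. The tissue difference went from 743 genes to 484 to 896. With library size scaling the HFSC calls were 1269 higher and 1533 lower, against 1468 and 1205, and the tissue differences 368 and 393, against 455 and 288. With 5 added before the log, 4 of the 27 relations passed (adjusted p = 0.0361 each), against 0. Replicate numbers in HFSC did not pair the libraries (correlations of same-numbered deviations of -0.060, -0.018 and -0.026); with the replicate block 2696 genes and 23 listed genes were called. The cause of these shifts was not tested. With at most 1 read in any HFSC library, a difference in Lcn2 was not detectable there at this depth.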
